A study of Mus musculus with 25 samples.

Results

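The step from 2.8 to 3.5 mM hypochlorous acid (HOCl) is the last interval of a dose series in RAW 264.7 cells, an established mouse macrophage-like line. It was read from 6 of the 25 arrays of the series, 3 at each of the 2 doses, as the difference of their mean log2 levels. All 45037 probe sets other than the 64 array controls were compared, out of 45101 in all, and 18193 genes were each represented by their brightest probe set. Cells grown close to confluence received HOCl in serum-containing medium for 6 h at 8 doses, the lowest above 0 being 0.14 mM and those next below 2.8 mM being 2.1 and 1.4 mM. The 0 mM group had 4 arrays and every other dose had 3. The groups share the line, the medium with fetal bovine serum, the exposure time and the mass of total RNA labelled for each Affymetrix Mouse Genome array, and differ by the labels in HOCl alone. Levels are log2 values relative to the median of each array, so a level of 0 is the median probe set. The arrays are described as biological replicates, but no separate passage, day or batch is named, so the p-values measure the spread between these samples. HOCl also reacts with proteins of the serum.

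HOCl is the oxidant that the neutrophil enzyme myeloperoxidase makes from hydrogen peroxide and chloride, and it reacts quickly with the thiol groups of proteins and of glutathione. Oxidation of the sensor protein KEAP1 releases the transcription factor NRF2, which binds antioxidant response elements and switches on genes for glutathione synthesis, thioredoxin recycling and heme breakdown. Damaged proteins release the factor HSF1, which switches on chaperone genes, and macrophages also answer stress through NF-kB and AP-1, which drive cytokine and immediate early genes. Many of these induced messenger RNAs are short-lived.

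The labelled cell type was checked against macrophage markers. The 11 macrophage markers, among them Cd68, Csf1r and Spi1, all lay above the array median on all 6 arrays, with mean log2 levels of 5.48 to 5.77 at 2.8 mM and 5.80 to 5.94 at 3.5 mM. The markers of 8 other cell types had mean levels between -0.49 and 0.79 on these arrays. Of these, 3 of 4 T cell markers also lay above the median on all 6 arrays. So did 1 each of the B cell, epithelial, endothelial, dendritic and osteoclast markers. The neutrophil marker S100a8 reached 3.55 and 3.57 on replicates 2 and 3 of 2.8 mM. The arrays of a dose were not all alike. Replicate 1 of 2.8 mM correlated with replicate 1 of 3.5 mM at r = 0.985 over all probe sets, and with the other 2.8 mM arrays at 0.977 each, while replicates 2 and 3 correlated with each other at 0.996 for 2.8 mM and 0.991 for 3.5 mM. Of the genes that differed at the step, 2125 had replicate 1 of 2.8 mM closer to 3.5 mM than both other 2.8 mM arrays, and 1704 had replicate 1 of 3.5 mM closer to 2.8 mM than both others. The control probe sets for the 3 prime and 5 prime ends of Actb differed by 0.28 to 0.68 log2 units on the 6 arrays, and the hybridization controls lay between 4.07 and 4.61, lowest on replicates 2 and 3 of 3.5 mM. The part of these array differences in the results was not tested.

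Between 2.8 and 3.5 mM, 5066 of 45037 probe sets differed (11.2%; limma, Benjamini-Hochberg adjusted p under 0.05, two-sided), 2518 of them higher (5.59%) and 2548 lower (5.66%) at 3.5 mM. Per gene, 2571 of 18193 differed (14.1%), 1602 higher (8.81%) and 969 lower (5.33%). Large falls outnumbered large rises: 65 genes were at least 4-fold lower and 31 at least 4-fold higher. The median log2 difference was -0.99 over the genes that fell and 0.83 over those that rose, beside 0.07 over all genes. The 3 arrays of one dose did not overlap those of the other for 1441 of the genes that rose and 862 of those that fell, where non-overlap was seen in 19% and 9.3% of all genes in the respective direction. The step before it, from 2.1 to 2.8 mM, had 11 probe sets past the same threshold (0.0244%), and shares the 2.8 mM arrays. Single arrays moved the count: it was 2123 without replicate 2 and 2177 without replicate 3 of 2.8 mM, and 3127 without replicate 2 and 2489 without replicate 3 of 3.5 mM. It was 7023 with both replicate 1 arrays left out, an alternative added after the values were seen, and 2043, of which 26.9% were higher, when the spread was taken from the 6 arrays alone. Arrays are centred on their own median, so a change shared by all transcripts would not show, and fewer cells and less RNA per cell cannot be told apart.

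**Figure D1:**
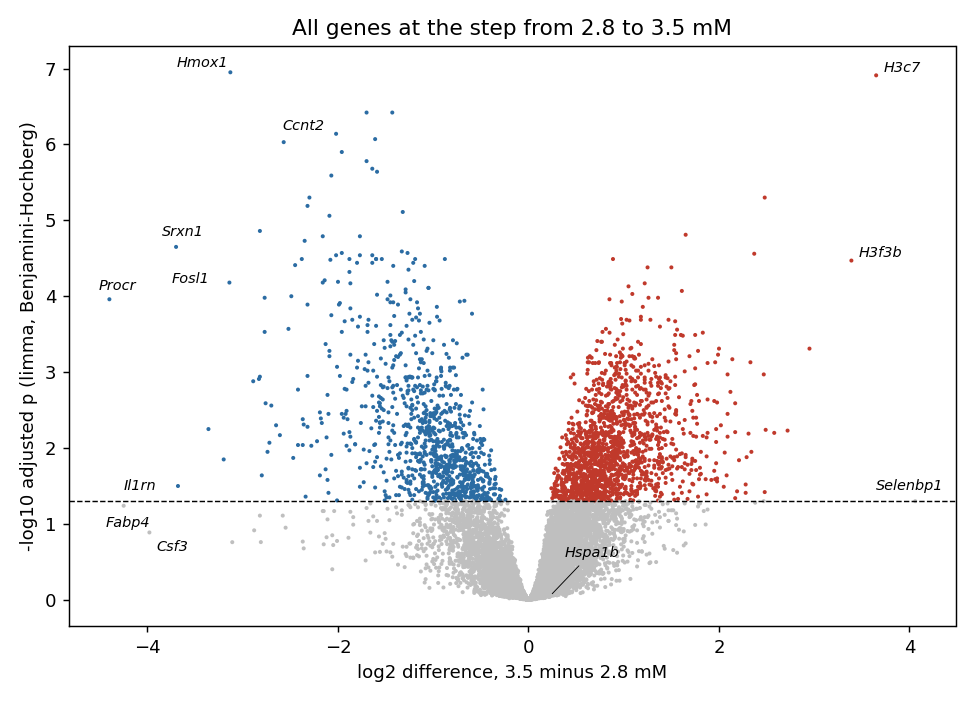
Each point is 1 of 18193 genes, placed by its log2 difference between the mean of 3 arrays at 3.5 mM and of 3 at 2.8 mM (horizontal) and by -log10 of its adjusted p (vertical), with the dashed line at 0.05. The 1602 genes that rose are red and the 969 that fell are blue, and the falls reach further from 0, to -4.40 for Procr. Csf3 and Fabp4 lie far to the left and Selenbp1 far to the right, all below the line, at adjusted p = 0.129, 0.0573 and 0.05 (rounded).

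Most genes that stood higher at 2.1 than at 0 mM were lower at 3.5 than at 2.8 mM, and most that stood lower were higher. The genes were chosen on the 0 and 2.1 mM arrays. None of these enter the difference of means at the step, but all enter the spread behind its p-values. The choice and the calls at the step are therefore not fully independent. The comparison of 2.1 with 0 mM called 6015 probe sets (13.4%) and 2824 genes (15.5%). Of the 453 genes at least 2-fold higher at 2.1 than at 0 mM, 172 fell at the step (38%, beside 5.33% of all genes) and 0 rose, with limma, at the adjusted threshold or at an unadjusted p under 0.05. Their median log2 difference was -0.90 and 444 of 453 were below 0. Their median level was 2.23 at 0 mM, 3.74 at 2.1 mM, 3.40 at 2.8 mM and 2.36 at 3.5 mM. Of the 541 genes at least 2-fold lower at 2.1 mM, 341 rose (63%, beside 8.81% of all genes), with a median of 1.11, and 0 fell, or 1 at an unadjusted p under 0.05. Their median level went from 3.03 at 0 mM to 1.59 at 2.1 mM and 1.77 at 2.8 mM, and was 2.96 at 3.5 mM.

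By array, the median over the induced genes was 2.94, 3.74 and 3.61 at 2.8 mM and 2.77, 2.15 and 2.20 at 3.5 mM, in the order of the replicates. The medians of the 2 doses did not overlap, and replicate 1 of each dose lay toward the other dose. Leaving out 1 array in turn moved the share of induced genes that fell between 16.9% (without replicate 2 of 2.8 mM) and 56.8% (without replicate 1 of 2.8 mM). It was 19.4% without replicate 3 of 2.8 mM, and 21.2% and 22.9% without replicates 2 and 3 of 3.5 mM. With both replicate 1 arrays left out it was 61.5%. The share of repressed genes that rose was 22.2% and 22.3% without replicates 2 and 3 of 2.8 mM, and 25% without replicate 3 of 3.5 mM. Among the stronger responders, 38 of 81 genes induced at least 4-fold fell (46.9%), and 35 of 50 genes repressed at least 4-fold rose (70%). Some of these genes were also split among the arrays of other doses. Csf3 was at -0.37, -0.31 and 6.86 at 0.7 mM and at 0.22, -0.13 and 6.5 at 1.4 mM. Selenbp1, a repressed gene, was at 5.47, 1.22 and -0.12 at 1.4 mM. Hmox1 was not split, at 6.91, 7.03 and 6.64 at 0.7 mM and 7.32, 7.38 and 7.38 at 1.4 mM. The 0 mM arrays were also split in some genes, with replicates 2 and 4 apart from 1 and 3. Ptgs2 was at 2.84, 4.01, 1.59 and 3.61 there, in the order of the replicates, while Hmox1 was closer together at 4.18, 4.24, 3.42 and 4.38. A 0 mM mean given for a gene can hide such a spread. What set these arrays apart was not tested.

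**Figure D2:**
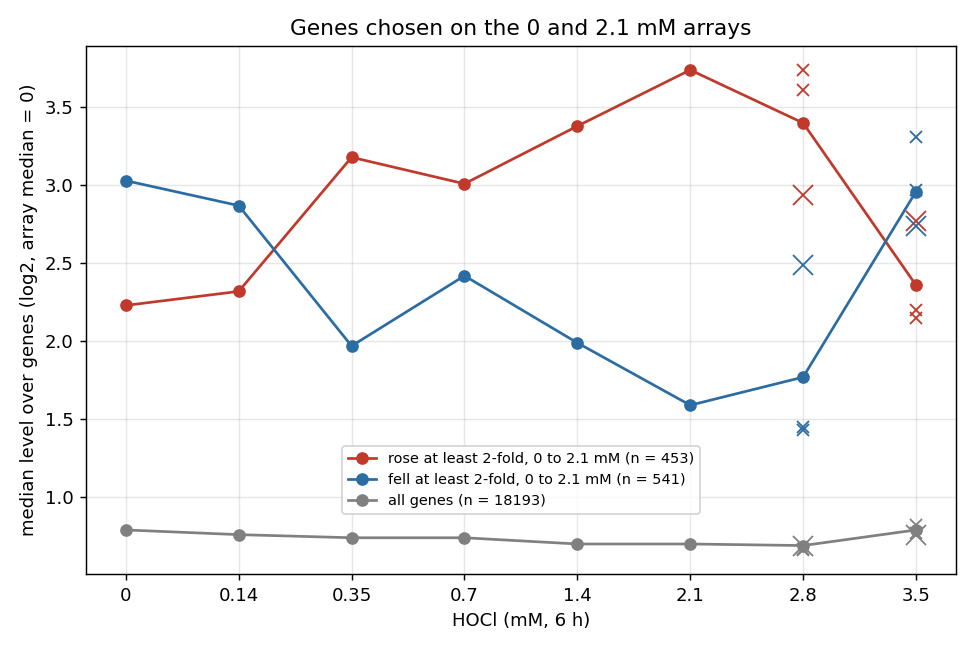
Median log2 level over the genes that rose (red, 453) or fell (blue, 541) at least 2-fold from 0 to 2.1 mM and over all genes (grey, 18193), against HOCl dose; points are medians of the dose means and crosses the medians of the single arrays at 2.8 and 3.5 mM, with the larger cross for replicate 1. The red line drops from 3.40 to 2.36 and the blue line climbs from 1.77 to 2.96 at the last step, both close to their 0 mM values of 2.23 and 3.03.

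The genes of the step were set beside their own calls at 2.1 mM. Of the 969 genes that fell, 393 had risen at 2.1 mM (40.6%), 7 had fallen and 569 (58.7%) had not passed the test there. Of the 1602 that rose, 820 had fallen at 2.1 mM (51.2%), 2 had risen and 780 (48.7%) had not passed. Seen from the other side, 393 of the 1332 genes raised at 2.1 mM (7.32% of all genes) fell at the step, or 29.5%. Of the 1492 lowered there (8.2%), 820 rose, or 55%. Of the 15369 genes that had not passed there, 569 fell (3.7%) and 780 rose (5.08%), smaller shares than the 5.33% and 8.81% over all genes. A gene that missed the threshold at 2.1 mM is not shown to have kept its level there.

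NRF2 target genes were among those that fell, with Srxn1, Hmox1, Slc7a11 and Gclm among the 15 largest falls. Of 27 genes measured on the antioxidant list, 11 fell (40.7%, beside 5.33% of all genes) and 0 rose (1 at an unadjusted p under 0.05). Their median log2 difference was -0.71. Promoter stretches of 3 genes that fell are printed because each holds the core of an antioxidant response element, TGACNNNGC on either strand, in capitals. They are RefSeq sequence of build GRCm38.p6, from chr2:155751023-155751111, chr3:122245383-122245471 and chr10:82859074-82859162, all on the plus strand, and the core begins 154, 134 and 92 bases before the annotated start. Procr encodes the endothelial protein C receptor, Gclm the modifier subunit of the enzyme that makes the glutathione precursor, and Txnrd1 cytosolic thioredoxin reductase.
Procr: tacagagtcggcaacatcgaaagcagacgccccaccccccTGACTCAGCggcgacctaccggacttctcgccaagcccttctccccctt
Gclm: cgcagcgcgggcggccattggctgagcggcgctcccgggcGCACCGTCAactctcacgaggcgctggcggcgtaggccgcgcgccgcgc
Txnrd1: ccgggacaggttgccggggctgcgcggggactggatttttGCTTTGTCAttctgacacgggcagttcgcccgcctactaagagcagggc
The core in Procr also spells an AP-1 site, TGANTCA. Over promoters from 250 bases before to 50 after the start, the antioxidant core was found in 3 of 13 of the largest falls with an entry and in 4 of 12 of the largest rises, beside 12.4% of all 32851 promoters. A gene was counted if any of its promoters held the core, while the 12.4% is per promoter. The promoters belong to 27025 symbols, so the shares of genes and of promoters are not in like units. A match is a description of the letters and not a site shown to be bound.

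Srxn1 encodes sulfiredoxin, which repairs over-oxidized peroxiredoxins. Its log2 level was 4.19, 6.42 and 6.20 on the 2.8 mM arrays and 2.57, 1.37 and 1.78 on the 3.5 mM arrays. The groups did not overlap, and the 3.5 mM values surround the 0 mM mean of 2.16. The fall was 13-fold (log2 difference -3.70, SE 0.422, limma adjusted p = 2.26e-05), and all 4 Srxn1 probe sets fell. Hmox1 encodes heme oxygenase-1, which breaks down heme. It stood at 6.43, 7.25 and 7.18 at 2.8 mM and at 3.56, 3.83 and 4.07 at 3.5 mM, against a 0 mM mean of 4.06. Every 3.5 mM array was below every 2.8 mM array by over 2 log2 units, and the fall was 8.76-fold (SE 0.217 on the log2 scale, limma adjusted p = 1.12e-07). This fall exceeded the change over the previous step, with a difference between the steps of -2.51 (adjusted p = 0.00323).

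Among the genes that supply glutathione, Slc7a11, the cystine importer, was at 2.83, 5.67 and 5.48 at 2.8 mM and at 1.40, 2.05 and 1.85 at 3.5 mM, a 7.42-fold fall (adjusted p = 0.00133). Replicate 1 of 2.8 mM lay nearest to the 3.5 mM arrays but above all of them. Gclm was at 4.62, 6.44 and 6.35 and then at 3.58, 2.65 and 2.86, a 6.83-fold fall (adjusted p = 0.000105). Gclc, the catalytic subunit partner of Gclm, fell 2.97-fold (adjusted p = 0.00389). The groups did not overlap for either. Txnrd1 went from 5.95, 6.73 and 6.56 to 4.80, 4.02 and 4.14, and its mean of 4.32 at 3.5 mM was below the 0 mM mean of 5.19 (adjusted p = 0.0103, where 9.32% of probe sets differed between 3.5 and 0 mM).

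Other NRF2 targets that fell were Slc40a1, the iron exporter ferroportin (3.75-fold), Gsta2, a glutathione transferase (4.36-fold), Me1, malic enzyme (2.17-fold), Sqstm1, the autophagy adaptor p62 (2.07-fold), and Cat, catalase (1.68-fold). The 2 doses overlapped for Sqstm1. Nqo1, a quinone reductase, had a log2 difference of -1.09 (SE 0.414) that did not pass (adjusted p = 0.104). The ferritin heavy chain Fth1 and thioredoxin Txn1 had differences of -0.12 and -0.25 and did not pass, nor did the glutathione transferases Gstm1 and Gsta3. On the list 5 genes fell when the spread was taken from the 6 arrays alone.

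Of 27 cytokine and chemokine genes, 5 fell (18.5%, beside 5.33% of all genes), 22 did not pass and 0 rose (0 at an unadjusted p under 0.05). Their median was -1.24, and the 5 falls depended on single arrays. Il1rn, the interleukin-1 receptor antagonist, was at 3.50, 6.54 and 6.46 at 2.8 mM and at 3.15, 1.16 and 1.16 at 3.5 mM. At 2.8 mM replicates 2 and 3 lay near the 2.1 mM mean of 6.49, at 3.5 mM they lay below the 0 mM mean of 2.11, and replicate 1 of each dose lay between. The fitted fall was 12.8-fold (log2 SE 1.08, adjusted p = 0.0313), and all 3 probe sets of the gene fell. Ptgs2, cyclooxygenase-2, went from 4.92, 7.31 and 7.18 to 3.27, 3.45 and 3.08 (9.21-fold, adjusted p = 0.014), close to its 0 mM mean of 3.01. Socs3, a feedback inhibitor of cytokine signalling, fell 6.98-fold. The cytokine Il1b fell 4.3-fold (limma adjusted p = 0.0385), from 0.05, 2.71 and 2.88 to -0.04, -0.46 and -0.16. Its replicate 1 array at 2.8 mM thus lay near the 3.5 mM values. The chemokine Ccl4 fell 5.05-fold, with replicate 1 of 2.8 mM inside the 3.5 mM range.

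The Il1rn promoter holds an AP-1 site, TGANTCA on either strand, in capitals in the stretch printed, which begins 141 bases before the start, at chr2:24336679-24336765 on the plus strand.
Il1rn: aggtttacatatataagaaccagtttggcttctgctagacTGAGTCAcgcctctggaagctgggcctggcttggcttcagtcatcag
This site was found in 4 of 13 of the largest falls and in 1 of 12 of the largest rises, beside 7.81% of all promoters. The last share is again per promoter and not per gene. The AP-1 site and the antioxidant core can overlap.

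The largest difference on the list did not pass. Csf3, granulocyte colony-stimulating factor, was at 0.78, 5.54 and 5.53 at 2.8 mM and at 0.26, -0.17 and -0.19 at 3.5 mM (log2 difference -3.98, SE 1.61, adjusted p = 0.129). Its replicate 1 array at 2.8 mM was already near the 3.5 mM values. Acod1, the itaconate-producing enzyme, had a difference of -3.11 (adjusted p = 0.174), and Cxcl2, Ccl2 and Tnf had -2.88, -2.81 and -1.89, none of which passed. Outside the list, Fabp4, a fatty acid carrier, had -4.25 (adjusted p = 0.0573). With both replicate 1 arrays left out, 9 cytokine genes fell. With single arrays left out, 11 fell without replicate 1 of 2.8 mM, 0 without its replicate 2 or 3, 1 without replicate 2 of 3.5 mM and 0 without its replicate 3. The calls of Il1rn and Socs3 were lost without replicate 2 or 3 of either dose, and that of Ptgs2 without replicate 2 or 3 of 2.8 mM or replicate 3 of 3.5 mM, or with its other probe set (-3.34, adjusted p = 0.0702). Nfkbia, the NF-kB inhibitor that NF-kB itself induces, fell 2.2-fold (adjusted p = 0.000733) on its brightest probe set, but 2 of its 5 probe sets passed and the one of largest variance had a difference of -0.32 (adjusted p = 0.743). Rel, an NF-kB subunit, fell 6.09-fold (adjusted p = 0.0068). The Rel call was lost without replicate 2 or 3 of 2.8 mM.

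Procr had the largest fall of all called genes. It was at 4.38, 6.67 and 6.56 at 2.8 mM and at 2.48, 1.11 and 0.83 at 3.5 mM, with a 0 mM mean of 1.96. The doses were apart by almost 2 log2 units, and the fall was 21.1-fold (log2 SE 0.595, adjusted p = 0.00011). Slc17a6, a vesicular glutamate transporter, was at 0.93, 4.07 and 3.80 and then at 0.17, -0.74 and -0.70 (10.2-fold, adjusted p = 0.00568). Ampd3, AMP deaminase 3, fell 7.08-fold from 2.28, 4.87 and 4.68 to 1.49, 0.96 and 0.92. Mir22hg, the host transcript of miR-22, fell 6.79-fold, and Afp, alpha-fetoprotein, fell 6.26-fold. The Slc17a6 call was lost without replicate 2 of 2.8 mM. Tfrc, the transferrin receptor, also stood out among the array controls, where its 3 prime probe set was at 3.98, 4.73 and 4.71 at 2.8 mM and at 3.67, 1.50 and 1.57 at 3.5 mM, so that replicate 1 of 3.5 mM lay close to the 2.8 mM arrays.

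**Figure D3:**
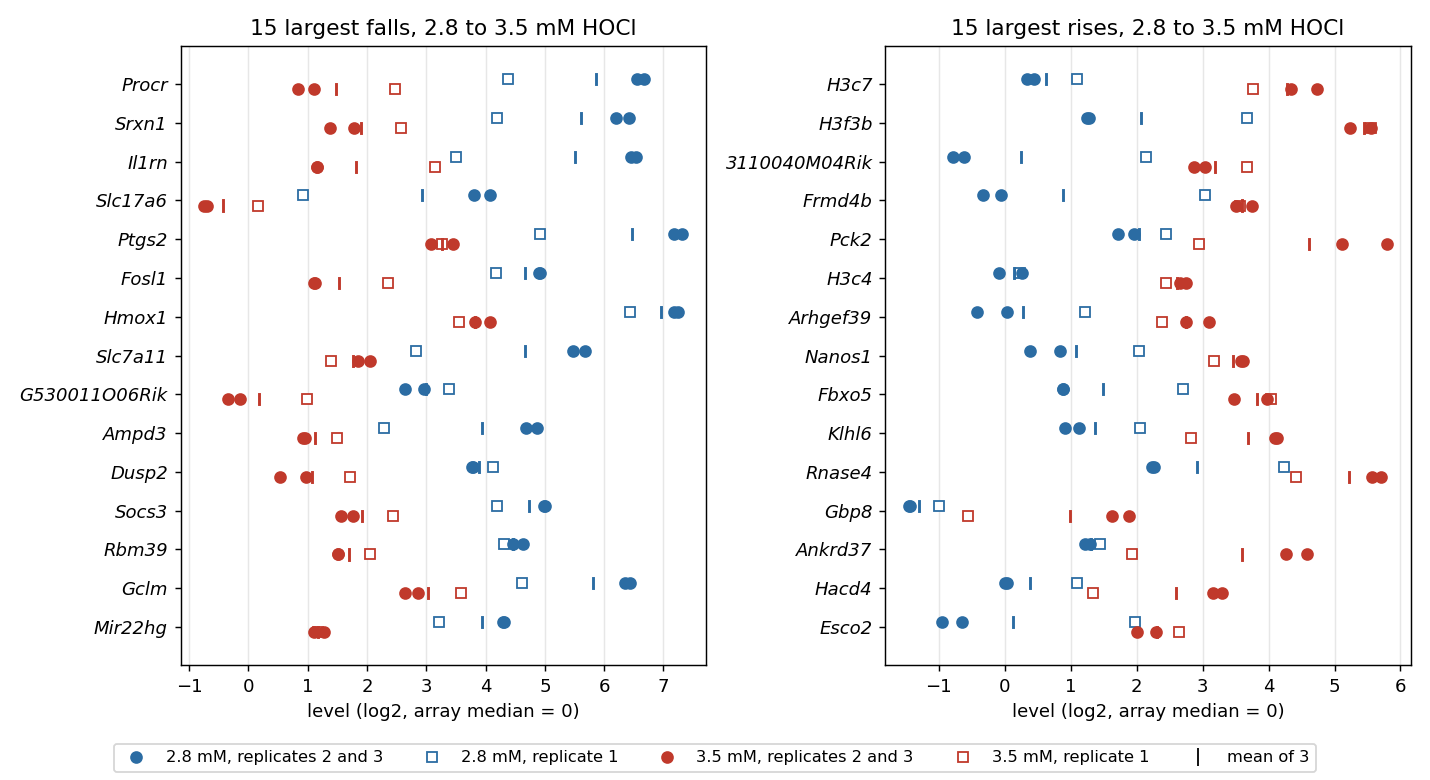
Log2 level on each of the 6 arrays for the 15 genes of largest fall (left) and of largest rise (right) among called genes whose arrays did not overlap; blue is 2.8 mM, red is 3.5 mM, open squares are replicate 1 and bars are means of 3. In the falls the open blue squares mostly sit left of the filled blue points, as in Procr at 4.38 against 6.67 and 6.56, and in the rises they mostly sit to the right, as in H3f3b at 3.68 against 1.24 and 1.27.

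Some heat shock genes fell while Hspa1b stayed high. Of 22 measured, 6 fell (27.3%, beside 5.33% of all genes) and 0 rose (0 at an unadjusted p under 0.05). Hsph1, an HSP110 chaperone, went from 5.86, 6.24 and 6.17 to 4.79, 3.56 and 3.69 (4.21-fold lower, adjusted p = 0.000178), with a 0 mM mean of 4.59. Dnaja1, an HSP40 cochaperone, fell 2.69-fold, Bag3, an HSP70 cochaperone, 2.39-fold, the HSP40 Dnajb1 2.02-fold, the HSP90 Hsp90aa1 1.75-fold and Chordc1 1.69-fold. The Hsp90aa1 call was lost without replicate 2 of either dose or replicate 3 of 3.5 mM. Hspa1b, the main stress-inducible HSP70, was at 7.37, 6.13 and 6.11 at 2.8 mM and at 6.81, 6.81 and 6.65 at 3.5 mM. The 2 doses overlapped, both stood far above the 0 mM mean of 2.92, and the log2 difference was 0.22 (SE 0.621, adjusted p = 0.898). All 3 Hspa1b probe sets had differences between 0.22 and 0.43 that did not pass. Hspa1b is near-identical in sequence to Hspa1a, so probe sets for one may read both.

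Promoter stretches of a chaperone gene that fell and of Hspa1b are shown with the heat shock element core, GAANNTTC, in capitals, which begins 124 bases before the Dnaja1 start (chr4:40722304-40722391, plus strand) and 104 bases before the Hspa1b start (chr17:34959295-34959382, minus strand).
Dnaja1: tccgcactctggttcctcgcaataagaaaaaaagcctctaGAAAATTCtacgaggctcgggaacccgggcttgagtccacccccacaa
Hspa1b: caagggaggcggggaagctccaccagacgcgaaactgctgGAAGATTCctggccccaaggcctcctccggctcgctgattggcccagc
The core was found in 4 of the 5 heat shock genes that fell and have an entry and in 7 of the 14 that did not pass, beside 7.86% of all promoters. Here too the genes count any of their promoters, while the 7.86% is per promoter.

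Immediate early genes, which cells transcribe within minutes of a stimulus, moved in both directions. Of 32 measured, 9 fell (28.1%, beside 5.33% of all genes) and 2 rose (6.25%, beside 8.81%). Fosl1, the AP-1 subunit FRA-1, went from 4.17, 4.92 and 4.90 to 2.36, 1.13 and 1.10, an 8.8-fold fall (adjusted p = 6.53e-05) that took all 3 arrays below the 0 mM mean of 2.71. Arc, Csrnp1, Gadd45b, Ier5, Fosl2, Maff, Zfp36 and Fosb also fell. Fos was at 6.09, 2.60 and 2.44 at 2.8 mM and at 6.09, 5.91 and 5.99 at 3.5 mM. Replicate 1 of 2.8 mM equalled the 3.5 mM arrays, while the other 2 were below the 0 mM mean of 4.11, and the rise of 4.89-fold (adjusted p = 0.0132) was lost without replicate 2 or 3 of 2.8 mM. Gadd45g, a stress sensor, rose 5.62-fold, from 3.92, 0.82 and 0.84 to 3.85, 4.39 and 4.80, with replicate 1 of 2.8 mM inside the 3.5 mM range. Egr1 and Atf3 had differences of 0.40 and -0.46 that did not pass. With 1 array left out in turn, between 5 (without replicate 2 of 3.5 mM) and 7 genes of the list fell, and 0 rose without replicate 2 or 3 of 2.8 mM.

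Of 15 phosphatases and inhibitors that end MAP kinase signalling, 6 fell (40%, beside 5.33% of all genes) and 0 rose (0 at an unadjusted p under 0.05). Dusp2, a nuclear phosphatase of ERK and p38, was at 4.12, 3.77 and 3.78 at 2.8 mM and at 1.72, 0.53 and 0.97 at 3.5 mM, a 7.05-fold fall (adjusted p = 1.37e-05). The groups were over 2 log2 units apart. Dusp5, an ERK phosphatase, fell 6.66-fold, Errfi1, an inhibitor of the EGF receptor, 5.54-fold, Dusp16 2.7-fold and Dusp4 2.41-fold. The count was 3 without replicate 2 and 3 without replicate 3 of 2.8 mM.

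Where the last step differed from the one before it was tested directly: 307 probe sets (0.682%) and 164 genes (0.901%) did so, 103 genes in the downward (0.566%) and 61 in the upward direction (0.335%). The genes of largest downward difference stood higher at 2.8 than at 2.1 mM. Arc, a neuronal activity-regulated gene, had a mean of 1.00 at 2.1 mM, was at 5.14, 3.11 and 3.44 at 2.8 mM and at 2.49, 1.00 and 1.64 at 3.5 mM, with a difference between the steps of -5.07 (adjusted p = 0.0042). Hbegf, a growth factor of the EGF family, was at 3.19, 3.40 and 3.77 and then at 1.51, 0.62 and 0.98 (-4.71, adjusted p = 0.00689). G530011O06Rik, Gadd45b and Kdm6b, a histone demethylase, followed with -4.65, -4.10 and -4.03. Upward, H3c7, Septin10, H3c4, Etfbkmt and Chst12 had 3.21, 2.60, 2.28, 2.10 and 2.07. The gene count was 737, 31 and 18 without replicates 1, 2 and 3 of 2.8 mM, 373, 77 and 79 without those of 3.5 mM, and 1043 with both replicate 1 arrays left out.

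**Figure D4:**
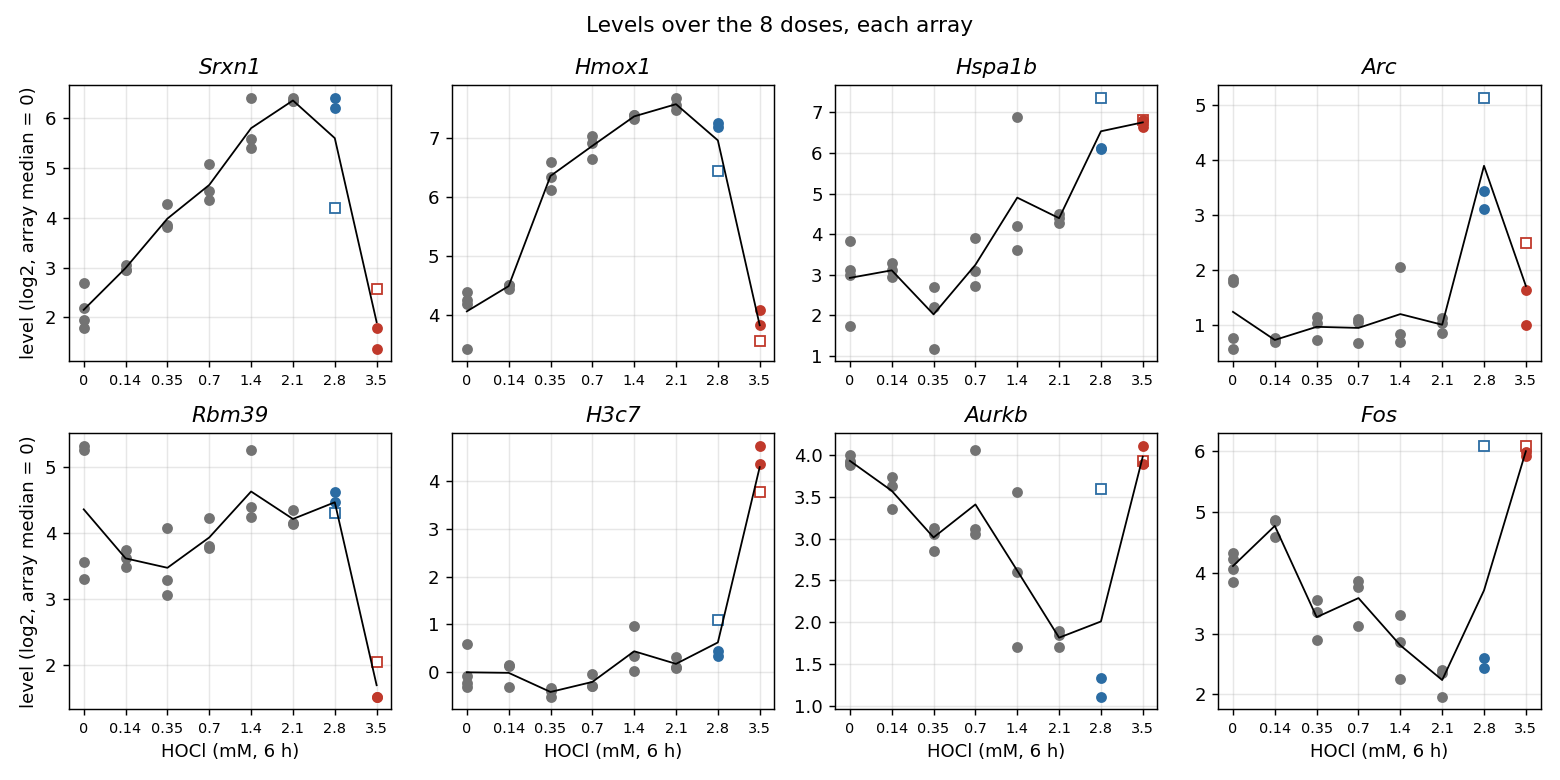
Log2 level on every array against HOCl dose for 8 genes; the line joins dose means, blue marks 2.8 mM, red marks 3.5 mM, and open squares are replicate 1 of those doses. Srxn1 and Hmox1 climb to 2.1 mM and fall to their 0 mM level at 3.5 mM, Hspa1b is at 6.65 to 6.81 at 3.5 mM, the Arc mean is highest at 2.8 mM, Rbm39 drops from 4.31 to 4.63 at 2.8 mM to between 1.52 and 2.05, and H3c7 climbs at 3.5 mM. For Aurkb and Fos the open square at 2.8 mM lies with the 3.5 mM arrays.

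Some transcripts that had not passed the test at 2.1 mM fell below the untreated level at the step. Rbm39, a splicing factor of the SR family, was at 4.31, 4.47 and 4.63 at 2.8 mM and at 2.05, 1.52 and 1.52 at 3.5 mM, against means of 4.36 at 0 mM and 4.22 at 2.1 mM. The groups were over 2 log2 units apart, and the fall was 6.84-fold (limma adjusted p = 0.000297). The 3.5 mM mean was lower than at 0 mM (limma adjusted p = 0.000161). The 0 mM arrays were themselves split, at 3.3, 5.33, 3.56 and 5.26 in the order of the replicates, all above the 3.5 mM values. Rbm39 has 12 probe sets, of which 9 fell, with differences from -2.85 to -0.20. Several of them were not called lower at 3.5 than at 0 mM, at limma adjusted p = 0.799, 0.695, 0.369 and 0.159, and the rest were. The probe set with 0.799 was at 3.60, 3.19 and 3.11 at 3.5 mM, against a 0 mM mean of 3.47. Splicing factors as a list had 6 of 29 falling (20.7%, beside 5.33% of all genes) and 0 rising (0 at an unadjusted p under 0.05). Among the falls were Srsf6 (3.3-fold), Hnrnpu (2.19-fold) and Srsf11 (1.95-fold). Without replicate 1 of 3.5 mM the count was 12.

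Transcription machinery showed 7 falls (31.8%, beside 5.33% of all genes) and 1 rise (4.55%, beside 8.81%) among 22 genes. Ccnt2, a cyclin of the elongation kinase P-TEFb, was at 2.27, 2.54 and 2.49 and then at 0.46, 0.34 and 0.44, a 4.06-fold fall (SE 0.168 on the log2 scale, adjusted p = 7.30e-07) to below its 0 mM mean of 2.05 (adjusted p = 1.83e-06). The arrays of each dose were close together here, replicate 1 included. Of 5 Ccnt2 probe sets 2 fell: the other one that passed had a difference of -0.79 and did not pass against 0 mM (adjusted p = 0.86), and the remaining ones had -0.36, 0.28 and 0.05. Its paralog Ccnt1 fell 2.85-fold, Med1, a Mediator subunit, 2.58-fold (2 of its 7 probe sets passed), Polr2a, the largest subunit of RNA polymerase II, 2.05-fold, and Cdk7 2-fold. Polr2h, a small subunit of the polymerases, rose by 0.47 on the log2 scale. The count of falls was 4 without replicate 2 or 3 of either dose. Of 21 genes of mRNA decay and poly-A handling, 6 fell (28.6%, beside 5.33% of all genes) and 1 rose (4.76%, beside 8.81%). Among the falls were Cnot6 of the CCR4-NOT deadenylase and the decapping factor Dcp1a (2.14 and 2.1-fold). The rise was that of the deadenylase Parn. Of 4 Cnot6 probe sets 2 passed, and the one of largest variance had a difference of -0.08 (adjusted p = 0.897). The count of falls in mRNA decay was 3 without replicate 2 or 3 of either dose.

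Mdm2, the ligase that degrades p53, was at 5.48, 5.19 and 5.28 at 2.8 mM and at 2.89, 2.97 and 3.14 at 3.5 mM, a 4.98-fold fall (adjusted p = 0.000129), with a 0 mM mean of 3.97. The groups lay over 2 log2 units apart. In all, 5 of 20 p53 targets fell (25%, beside 5.33% of all genes) and 0 rose (0 at an unadjusted p under 0.05). The count of falls was 3 and 2 without replicates 2 and 3 of 2.8 mM and 2 without replicate 2 of 3.5 mM. Of 21 apoptosis regulators 2 fell (9.52%, beside 5.33% of all genes) and 3 rose (14.3%, beside 8.81%). Cflar, the caspase-8 inhibitor c-FLIP, fell 4.26-fold from 2.88, 3.87 and 3.70 to 1.20, 1.48 and 1.49, below its 0 mM mean of 2.84 (adjusted p = 0.00552). Of 5 Cflar probe sets 3 fell. The next brightest fell 3.03-fold but did not pass against 0 mM (limma adjusted p = 0.425), and those not called at the step had differences of -0.42 and 0.01. Mcl1, a short-lived survival factor, fell 1.51-fold on its brightest probe set (limma adjusted p = 0.0298). Its other probe sets had differences of -0.49 to -0.29 and none passed (limma adjusted p = 0.337 to 0.636). Birc3, a ligase that restrains cell death, rose 2.06-fold, a call lost without replicate 2 or 3 of 3.5 mM, Casp9 1.32-fold, and Birc5, survivin, which also acts in mitosis, 2.63-fold. The number that rose was 5 without replicate 1 of 2.8 mM and 1 without replicate 2 or 3 of 3.5 mM, and 1 fell without replicate 2 or 3 of either dose.

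The gene of largest rise was H3c7, a replication-dependent H3 gene, which was at 1.10, 0.34 and 0.44 at 2.8 mM and at 3.77, 4.34 and 4.73 at 3.5 mM, with a 0 mM mean of 0.00. The groups were over 2 log2 units apart, and the rise was 12.6-fold (log2 SE 0.263, adjusted p = 1.22e-07). H3c4 rose 5.58-fold, from 0.22, -0.08 and 0.27 to 2.44, 2.66 and 2.75. A probe set for H3f3b, which encodes the variant histone H3.3, was at 3.68, 1.24 and 1.27 and then at 5.56, 5.55 and 5.24, a 10.5-fold rise. The 5 probe sets that read H3f3b together with H3f3a and related copies were far brighter, with means of 6.22 to 7.28 over the 25 arrays, and none passed, with differences of -0.01 to 0.18 (adjusted p = 0.38 to 0.979). The rise is that of 1 dim probe set. Of 63 probe sets named for histone genes, picked out after these values were seen and including those shared by many copies, 15 rose and 0 fell (5.59% and 5.66% of all probe sets). The probe sets of largest rise shared by several H3c or by several H4c genes rose 8.09-fold and 3.8-fold, and cannot tell the copies apart. The H4c one was dim, with a mean of -0.85 over the 25 arrays. Other shared H3c probe sets had log2 differences of 0.65, which passed, and 0.94, 0.32 and 0.12, which did not. Other shared H4c probe sets had 1.40 and 0.52, which passed, and 0.44 and 0.20, which did not. On the list of histone genes, 3 of 11 measured rose (27.3%, beside 8.81% of all genes). These were H3f3b by that dim probe set, the linker histone H1f4 (2.4-fold) and H2aw (2.13-fold). The H1f4 and H2aw probe sets were dimmer still, with means of -0.55 and 0.85 over the 25 arrays, beside 1.41 for H3f3b. The list does not hold every histone gene: H3c7, H3c4, H2bc18, H2az2 and H3c11 rose on probe sets of their own and are not on it. The H2aw call was lost without any 1 of the 2.8 mM arrays or replicate 2 or 3 of 3.5 mM.

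Most mitosis genes rose. Of 26 measured, 19 rose (73.1%, beside 8.81% of all genes) and 0 fell (0 at an unadjusted p under 0.05), with a median log2 difference of 1.45. Aurkb, aurora kinase B, was at 3.59, 1.33 and 1.11 at 2.8 mM and at 3.93, 3.89 and 4.11 at 3.5 mM, with means of 3.93 at 0 mM and 1.82 at 2.1 mM. Replicate 1 of 2.8 mM was close to the 3.5 mM arrays, and the rise was 3.91-fold (adjusted p = 0.00838). Ccna2, cyclin A2, was at 4.92, 3.03 and 2.95 and then at 5.55, 5.24 and 5.37. Nusap1, a spindle protein, rose 4.05-fold, Ttk, a checkpoint kinase, 4.16-fold, Plk1, polo-like kinase 1, 3.91-fold, and Top2a, topoisomerase II alpha, 3.02-fold. Outside the list, Fbxo5, an inhibitor of the anaphase-promoting complex, rose 5.06-fold and Esco2, a cohesin acetyltransferase, 4.55-fold. The Fbxo5 and Aurkb calls were lost without replicate 2 or 3 of 2.8 mM, and that of Esco2 without either of those or any 1 of the 3.5 mM arrays. The mean level of the list by array was 4.17, 2.57 and 2.51 at 2.8 mM and 4.41, 4.53 and 4.59 at 3.5 mM, beside 4.34 at 0 mM. Replicate 1 of 2.8 mM stood apart from its group in that mean. The count of rises was 24 without that array, 1 without replicate 2 or 3 of 2.8 mM, 11 and 5 without replicates 2 and 3 of 3.5 mM, 2 when the spread was taken from the 6 arrays alone, and 24 with both replicate 1 arrays left out.

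Of 31 DNA replication genes 2 rose (6.45%), a smaller share than the 8.81% over all genes. They were Tk1, thymidine kinase, 3.62-fold and Pold1, a polymerase delta subunit, 2.15-fold. Both calls were lost without replicate 2 or 3 of either dose or without replicate 1 of 3.5 mM. The count was 11 without replicate 1 of 2.8 mM. Of 24 DNA repair genes 5 rose (20.8%, beside 8.81% of all genes) and 0 fell (0 at an unadjusted p under 0.05). Ddb2, which recognises ultraviolet lesions, went from 0.98, -0.13 and 0.06 to 1.74, 1.69 and 2.13, a 2.92-fold rise (adjusted p = 0.000569). The groups did not overlap. Neil1, a base excision glycosylase, rose 2.32-fold and Xpa, of nucleotide excision repair, 1.96-fold (1 of its 3 probe sets passed). The count was 10 without replicate 1 and 2 without replicate 2 or 3 of 2.8 mM, and 3 without replicate 2 or 3 of 3.5 mM.

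Several other genes of large rise had been low at 2.1 mM. Frmd4b, a scaffold protein of cell junctions, was at 3.04, -0.06 and -0.34 and then at 3.56, 3.75 and 3.50, with 4.05 at 0 mM. Pck2, the mitochondrial phosphoenolpyruvate carboxykinase, was at 2.44, 1.96 and 1.72 and then at 2.95, 5.12 and 5.79, a 5.97-fold rise in which replicate 1 of 3.5 mM lay near the 2.8 mM arrays. Rnase4 rose 4.97-fold and Klhl6 5.01-fold. Nanos1, an RNA-binding protein, had means of 1.06 at 0 mM and 0.49 at 2.1 mM and went from 2.03, 0.38 and 0.84 to 3.17, 3.58 and 3.61, above the untreated level (5.18-fold, adjusted p = 2.78e-05, and adjusted p = 7.18e-06 against 0 mM). Selenbp1, a selenium-binding protein, had a log2 difference of 4.06 (SE 1.31) but 2.14, 0.45 and 0.33 against 2.36, 6.30 and 6.44. Replicate 1 of 3.5 mM lay near replicate 1 of 2.8 mM, and the adjusted p was 0.05 after rounding and did not pass. The Frmd4b and Rnase4 calls were lost without replicate 2 or 3 of 2.8 mM, and the Pck2 call without replicate 3 of 3.5 mM.

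Nuclear genes for mitochondrial proteins had rises of small size. Of 31 oxidative phosphorylation genes 13 rose (41.9%, beside 8.81% of all genes), by 0.26 to 0.56 on the log2 scale, and 1 fell (3.23%, beside 5.33%). Ndufb5, of complex I, was at 6.01, 5.71 and 5.57 and then at 6.18, 6.29 and 6.48 (1.46-fold, adjusted p = 0.00547), and Uqcrfs1, of complex III, rose 1.45-fold. The dose groups of Ndufb5 did not overlap. The gene that fell was Cox7c, 2.94-fold, on a dim probe set. It was at 1.06, 0.98 and 0.95 and then at -0.08, -0.86 and -0.73, while the list means at 2.8 mM were 5.85, 5.58 and 5.51. Of 32 mitochondrial ribosomal proteins 9 rose (28.1%, beside 8.81% of all genes) and 0 fell (0 at an unadjusted p under 0.05). Among the rises were Mrps35 (1.93-fold), Mrpl4 (1.7-fold) and Mrps16 (1.56-fold). For oxidative phosphorylation the count was 20, 3 and 2 without replicates 1, 2 and 3 of 2.8 mM, and 6 and 7 without replicates 2 and 3 of 3.5 mM. Of 29 cytosolic ribosomal proteins 1 fell (3.45%, beside 5.33% of all genes). It was Rpl12, a call lost without replicate 2 or 3 of either dose, and the median of the list was 0.10. ND5, the 1 mitochondrially encoded gene measured, had a difference of -0.32 that did not pass.

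Metabolic and hypoxia genes gave fewer calls. Of 24 hypoxia and glycolysis genes 4 rose (16.7%, beside 8.81% of all genes): Ankrd37 4.86-fold, Car9, carbonic anhydrase 9, 2.5-fold, Higd1a 1.75-fold and Tpi1. Ankrd37 was at 1.44, 1.29 and 1.21 and then at 1.93, 4.59 and 4.26, so that replicate 1 of 3.5 mM lay near the 2.8 mM arrays. The count was 10 without that array and 1 without replicate 2 or 3 of either dose. Of 24 ATF4 stress genes 5 rose (20.8%, beside 8.81% of all genes) and 2 fell (8.33%, beside 5.33%). Phgdh and Psat1, enzymes of serine synthesis, rose 2.1-fold and 1.67-fold (the other Psat1 probe set had 0.51, adjusted p = 0.841), Trib3 3.64-fold and Gpt2 2.77-fold, while Slc7a1, an arginine transporter, and Sesn2 fell. The glycine transporter Slc6a9 also rose, and 1 gene fell when any array but replicate 3 of 3.5 mM was left out. The number that rose was 8 without replicate 1 of 3.5 mM and 2 without replicate 2 or 3 of either dose. Mvk, Mvd and Pmvk, neighbouring enzymes of the mevalonate pathway, rose 1.82, 2.28 and 1.5-fold, 3 of 16 on the cholesterol list (18.8%, beside 8.81% of all genes). That count was 6 without replicate 1 of 2.8 mM and 1 without its replicate 2 or 3 or without replicate 3 of 3.5 mM.

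Of 27 macrophage identity genes 5 rose (18.5%, beside 8.81% of all genes) and 0 fell (0 at an unadjusted p under 0.05). Fcgr1, the high-affinity IgG receptor, was at 3.97, 2.40 and 2.35 and then at 4.64, 4.60 and 4.63 (3.29-fold, adjusted p = 0.0148), beside 3.93 at 0 mM. Coro1a, a cytoskeletal protein of leukocytes, rose 1.57-fold, but its probe set of largest variance had a difference of -0.22. The count was 1 without replicate 2 or 3 of 2.8 mM or without replicate 3 of 3.5 mM, and 8 without replicate 1 of 2.8 mM. Of the 28 markers of other cell types 0 passed (1 at an unadjusted p under 0.05), S100a8 having the largest difference at -2.55 (adjusted p = 0.112).

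Some programs gave no call. Of 22 unfolded protein response genes 0 passed (2 higher and 5 lower at an unadjusted p under 0.05), and of 23 interferon response genes 0 passed (0 higher and 1 lower), with medians of -0.22 for both. Without replicate 1 of 3.5 mM, 5 unfolded protein response genes were lower and 1 higher. Of 31 proteasome subunits 4 fell, Psmd1, Psmd7, Psmd11 and Psmd12, all of the regulatory particle. That count was 8 without replicate 1 of 3.5 mM, 0 without replicate 2 of 2.8 mM and 1 without its replicate 3 or without replicate 2 or 3 of 3.5 mM. Of 22 autophagy genes 2 fell, Gabarapl1 2.74-fold and Sqstm1, and Atg7 rose. Of 8 metallothionein and zinc genes 2 fell, the exporter Slc30a1 2.48-fold and the zinc sensor Mtf1 1.74-fold (2 of its 5 probe sets), and Mt1 had a difference of -0.26 that did not pass. Of 17 Toll-like receptor genes 1 fell, the TLR4 partner Ly96, 2.15-fold. Of 17 lipid and scavenger genes 2 rose, the ketone enzyme Acat1 (2.16-fold) and the lipoprotein receptor Scarb1 (1.75-fold). Of 19 aminoacyl-tRNA synthetases 3 rose, Qars, Vars and Mars1. That count was 9 without replicate 1 of 3.5 mM, 1 without its replicate 2 or replicate 2 of 2.8 mM, 0 without replicate 3 of either dose and 1 with the replicate block. Of 14 NF-kB regulators 2 rose, Birc3 and Relb, beside the 2 that fell. The rises were 0 without replicate 2 or 3 of 3.5 mM and 1 without replicate 2 or 3 of 2.8 mM, where 1 fell. Beside 5.33% of all genes, the shares that fell were proteasome 12.9%, autophagy 9.09%, zinc 25%, Toll-like receptors 5.88% and NF-kB regulators 14.3%. Beside 8.81% of all genes, the shares that rose were autophagy 4.55%, lipid 11.8%, synthetases 15.8% and NF-kB regulators 14.3%. Several of these shares lie near those over all genes. In these small lists single arrays decided calls: the autophagy falls were 5 without replicate 1 of 2.8 mM and 0 without its replicate 2, the Mtf1 call was lost without replicate 2 or 3 of 2.8 mM or replicate 1 or 2 of 3.5 mM, the Ly96 call was lost without replicate 2 or 3 of either dose, and the lipid rises were 5, 1 and 0 without replicates 1, 2 and 3 of 2.8 mM. With the probe set of largest variance the calls of Psmd11, Qars and Scarb1 were lost, at differences of -0.46, 0.45 and 1.07.

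**Figure D5:**
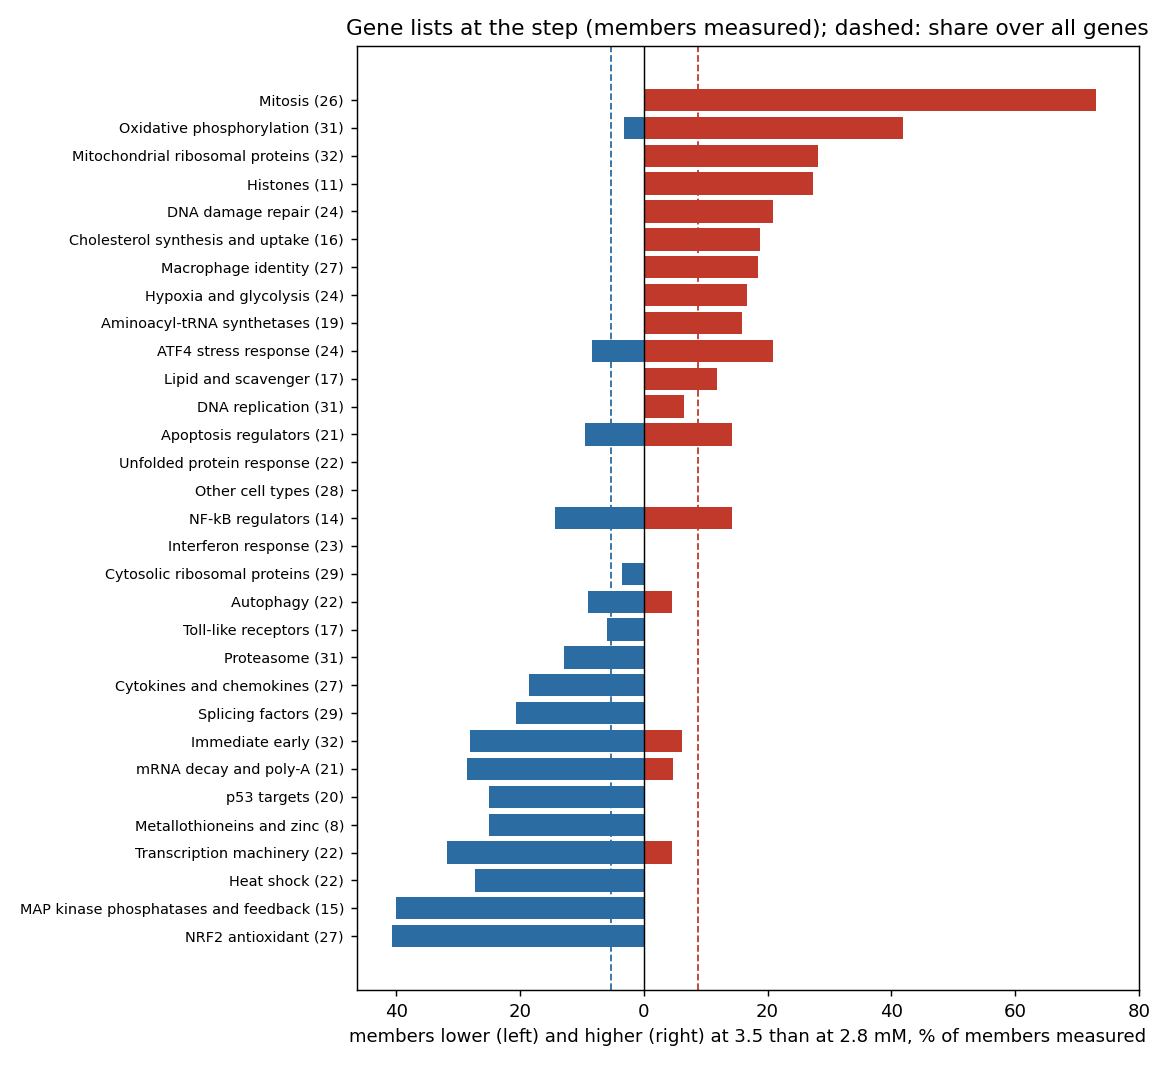
Share of the measured members of each gene list that were lower (blue, left) or higher (red, right) at 3.5 than at 2.8 mM, with the number measured in parentheses; dashed lines give the shares over all genes, 5.33% lower and 8.81% higher. Mitosis stands at 73.1% higher, and the antioxidant and MAP kinase feedback lists at 40.7% and 40% lower.

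Rises were fewer among probe sets without a gene name. Among 9160 probe sets with no symbol, 487 fell (5.32%) and 131 rose (1.43%), while among 34945 with 1 symbol 2002 fell (5.73%) and 2331 rose (6.67%). The shares that fell were both close to the 5.66% of all probe sets. Probe sets of 1 gene could also move apart: 18 of 2187 genes with several probe sets and a call had calls in both directions. Clta, a clathrin light chain, had 1 probe set with a log2 difference of -1.16 and another with 0.44. For Hexim1, the inhibitor of P-TEFb, the brightest probe set had a difference of 0.10 (adjusted p = 0.894), while another rose 5.37-fold, from 2.13, 1.17 and 1.31 to 4.13, 3.77 and 3.98. Vcp, an unfolding ATPase, had probe sets lower by different amounts, 1.66-fold and 6.31-fold. These genes were picked after their values were seen.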

How the data were processed

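Total RNA from the 25 cultures was hybridized to Affymetrix Mouse Genome 430 2.0 arrays, 1 array each. The authors deposited log2 values, made with RMA per the submitters' processing notes. The log base is inferred from their range, and each array's median is 0. The difference between the 3.5 and 2.8 mM means was tested with limma 3.58.1 (R 4.3.3) in a fit of a mean per dose over all 25 arrays (17 residual and 2.99 prior degrees of freedom), two-sided, Benjamini-Hochberg adjusted over 45037 probe sets, threshold 0.05. A gene was its brightest probe set with 1 symbol in the platform annotation. The difference between steps is the change from 2.8 to 3.5 mM minus that from 2.1 to 2.8 mM. Named genes were the 15 largest called rises and falls with non-overlapping arrays, up to 3 of lowest p per list, the 10 largest changes each way at 2.1 mM, the 5 largest differences each way between steps, and a short fixed set. Other list members are named from the counts. Members and lists were chosen with earlier results of these data known. Residuals about the dose means of equally numbered 2.8 and 3.5 mM arrays correlated at -0.00833, -0.0988 and -0.0683. Replicate 1 of each dose lay toward the other dose, which sets their residuals against each other. These values therefore cannot show whether the replicate numbers mark pairs. The test was checked on simulated data with independent noise in every value, which does not cover shifts of whole arrays. The number of arrays limits the precision. Scaling, centring, filter, prior, array set, array weights, replicate block, probe set choice and left-out arrays were varied.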

Additional observations from a re-analysis of the deposited data

Results flagged for a closer look

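Among 141 named genes, the 4 arrays of 0 mM held a value far from the other 3 in 13, where chance gives about 1 in 20. The values were H3c4 1.44, Il1rn 3.12, Slc17a6 1.20, Irf7 4.30, Mtf1 0.96 and Coro1a 7.17 on replicate 1. They were Lsp1 2.34, Etfbkmt -0.13, Dnaja1 6.29, Atg7 2.05, Uqcrfs1 5.44 and Xpa 0.78 on replicate 3, and Chst12 3.08 on replicate 4. These arrays do not enter the difference between 2.8 and 3.5 mM but do enter the spread. The rule seeks 1 far value, so it does not show 0 mM arrays that split into pairs, as in Rbm39.

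The step differed from the one before it, by limma's test of that difference, most upward in H3c7 (3.21), Septin10 (2.60), H3c4 (2.28), Etfbkmt (2.10) and Chst12 (2.07). It differed most downward in Arc (-5.07), Hbegf (-4.71), G530011O06Rik (-4.65), Gadd45b (-4.10) and Kdm6b (-4.03). Both steps share the 2.8 mM arrays.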

How the results depend on the processing

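Of the 107 calls among named genes, 38 held under every alternative that gave a value, which was 16 for 37 of them and 15 for H1f4, and 69 were lost under at least 1. The 6 arrays alone ended 61 calls and leaving out replicate 2 of 2.8 mM ended 38, while quantile normalization, centring on the 75th percentile and array weights ended 0. The replicate block ended 6. With the 6 arrays alone the step had 2043 probe sets (550 higher, 1493 lower) and 390 genes higher and 506 lower, and 16.8% of induced and 10.4% of repressed genes moved. With array weights, whose estimate stopped before converging, it had 10739 probe sets (5670 higher, 5069 lower) and 3206 genes higher and 1919 lower, and 68.9% of induced genes fell. Leaving out 1 array gave 2123 to 6637 probe sets (829 to 3531 higher, 1206 to 3106 lower), 560 to 2109 genes higher and 460 to 1214 lower. It gave 16.9% to 56.8% for induced and 22.2% to 80.7% for repressed genes. With both replicate 1 arrays left out, 61.5% of induced genes fell. The difference between steps had 494 probe sets after quantile normalization, 616 with the 75th percentile, 5671 with array weights, 202 with the replicate block (94 genes), 1832 without both replicate 1 arrays, and 37 to 1253 without single arrays. Its genes were 291, 2951 and 1043 in the order 75th percentile, weights, both replicate 1 arrays out, and 18 to 737 without single arrays. It could not be fitted on the 6 arrays alone. The step had 4587 probe sets with the replicate block; the numbers are not said to pair cultures. Directions turned for Atf3 without both replicate 1 arrays (0.32), Egr1 without replicate 2 of 2.8 mM (-0.13, in a range of -0.13 to 1.29 over single arrays left out), and, with the probe set of largest variance, Actb (0.73), Rps18 (-0.66) and Coro1a (-0.22). The cause of these changes was not tested.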

Other observations

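Probe sets of one gene that read different amounts of change were looked for after the values were seen. Slc20a1, a phosphate transporter, had its brightest probe set at 4.99, 4.55 and 4.44 at 2.8 mM and at 4.94, 4.05 and 4.15 at 3.5 mM (-0.28, limma adjusted p = 0.878). A dimmer probe set rose from 0.29, -0.53 and -0.53 to 2.45, 2.13 and 2.09, 5.58-fold (limma adjusted p = 1.89e-05). For Id2, an inhibitor of basic helix-loop-helix factors, both bright probe sets rose (3.67 and 3.51-fold) and a dim one rose 9.64-fold, from 0.07, -1.01 and -1.07 to 2.00, 2.80 and 2.99. Snx5, a sorting nexin, had its brightest probe set up 1.46-fold and a dimmer one down 2.66-fold. For Kcnq1ot1, a long noncoding transcript, the brightest probe set had a difference of -2.07. Where these probe sets lie in the transcripts was not analysed here.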
